A study of Homo sapiens with 4 samples.

Results

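The nuclear genes of oxidative phosphorylation were followed on 4 expression arrays of human embryonic stem cells. Members were all genes whose annotated symbol starts with NDUF, UQCR or ATP5, or with COX4 to COX8, together with the SDH subunit genes and CYC1. This gave 92 of the 20041 named genes on the array, 91 protein-coding genes and the antisense RNA NDUFB2-AS1, read by 127 probes. Of 97 protein-coding genes that match the rule in the RefSeq gene table, 6 had no named probe and were not analysed here, SDHB among them. Also left out were 2 pseudogenes with 3 probes. By complex there were 44 members of complex I with its NDUFAF assembly factors, 3 of complex II, 9 of complex III, 17 of complex IV and 18 of complex V.

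Oxidative phosphorylation makes most of the ATP of resting cells in the inner mitochondrial membrane. Complexes I and II take electrons from NADH and succinate and pass them to ubiquinone, complex III passes them to cytochrome c, and complex IV gives them to oxygen. Complexes I, III and IV pump protons, and complex V, the ATP synthase, uses the gradient. Pluripotent stem cells are known for a high rate of glycolysis beside a working respiratory chain, and many of their descendants rely more on respiration. Complexes I, III, IV and V also hold subunits encoded by mitochondrial DNA. None of the 26 mitochondrially encoded symbols looked for had a named probe (0 of 26), so only the nuclear part of each complex was measured.

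RNA came from 4 cultures, with 1 array for each. The Mesoderm array held cells given BMP4, a growth factor, in E8 for 6 days at a dose not given in the sources used here. The Nam array held cells given 10 mM nicotinamide, the amide of vitamin B3, in E8 for 24 h, and the Y27632 array cells given 10 µM of the small molecule Y27632 in E8 for 24 h. The E8 array held untreated cells, labelled 24 h, in E8, a defined medium shared by all 4 cultures. No array of cells kept for 6 days without BMP4 was analysed here, so the effect of BMP4 and that of time in culture cannot be told apart. The labels name H9 in their characteristics and H1 in their growth protocol, both established embryonic stem cell lines.

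Each condition had a single array, so no test was possible and every difference below is between single arrays. Values are log2 normalized intensities, and a difference is the log2 value of the treated array minus that of E8. A gene was called higher or lower at 1.5-fold, a log2 difference of 0.58, and the percentage of all compared genes called by the same rule is printed beside the members' count in each comparison. Counts use the measured difference, also where 1 of the 2 arrays did not detect the gene. The SD of the difference between probes of the same gene, pooled over genes, was 0.43 for Mesoderm, 0.30 for Nam and 0.25 for Y27632 against E8. Over the members alone it was 0.24, 0.18 and 0.18 in the same order of arrays. This spread leaves out variation between cultures and need not be technical only, since probes of a gene may read different transcripts. The mean signal of the arrays lay between 528.5 and 620.5, and 16509 to 18051 of the 47296 probes were detected.

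The labels were set against marker genes. Of 7 pluripotency markers with a probe, 6 were detected on Mesoderm and 7 on each of Nam, Y27632 and E8, with summed signals of 18390, 39660, 43610 and 50840. SOX2, a pluripotency factor, read 5.58 on Mesoderm, where it was not detected, 12.13 on Nam, 12.13 on Y27632 and 12.27 on E8. Of 9 mesoderm markers, 8 were detected on Mesoderm, 1 on Nam, 2 on Y27632 and 2 on E8. HAND1, a mesoderm transcription factor, read 12.53 on Mesoderm and was not detected on the other 3 arrays. The Mesoderm array also detected 3 of 3 endoderm markers and 3 of 6 of trophoblast and amnion, against 0 and 1 on Nam, 0 and 0 on Y27632, and 0 and 0 on E8. Muscle uses its own forms of some complex IV subunits, and its markers were detected for 1 of 6 genes on Mesoderm and for 0 of 6 on each other array. Of 3 neural markers, 1 was detected on Mesoderm, 1 on Nam, 2 on Y27632 and 1 on E8, of 3 fibroblast markers 3, 2, 2 and 2 on these arrays, and of 2 endothelial markers 0 on each. The part of such cells in the values below was not tested, and in these bulk samples fewer cells of a type and less RNA per cell cannot be told apart.

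Promoters of the members are shown first, because known regulators of this gene set, NRF1 (nuclear respiratory factor 1), the ETS-family factor GABP and YY1, bind short sequences near gene starts. Of the 92 members, 76 had an entry in the RefSeq promoter table (GRCh38.p14), and the 250 bases before the start were searched on both strands for GCGCANGCG (NRF1 core), CCGGAAG (ETS core) and AAGATGGC (YY1 core), which do not overlap in the sequences printed here. The 3 sequences below were picked to show a promoter with all 3 motifs, a promoter with repeated NRF1 cores, and a promoter of the member lowest on Mesoderm relative to E8, which has none of these letters. Capitals mark the motif matches.
ATP5PF (chr21:25735055-25735304, minus strand) is printed with the NRF1 core starting at base -120 from the gene start, the YY1 core at -57 and the ETS core at -30.
ATP5PF: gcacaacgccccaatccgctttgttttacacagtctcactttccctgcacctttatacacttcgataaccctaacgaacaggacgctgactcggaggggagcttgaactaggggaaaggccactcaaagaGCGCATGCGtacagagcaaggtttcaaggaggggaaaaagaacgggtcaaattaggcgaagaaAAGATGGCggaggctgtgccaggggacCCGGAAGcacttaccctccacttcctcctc
SDHA (chr5:218070-218319, plus strand) is printed with 4 NRF1 cores starting at -166, -117, -68 and -19.
SDHA: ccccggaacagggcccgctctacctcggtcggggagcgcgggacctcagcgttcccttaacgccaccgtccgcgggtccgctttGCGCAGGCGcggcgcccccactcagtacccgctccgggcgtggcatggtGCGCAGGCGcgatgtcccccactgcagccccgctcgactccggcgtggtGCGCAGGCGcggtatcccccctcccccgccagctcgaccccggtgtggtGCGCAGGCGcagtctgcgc
NDUFAF7 (chr2:37231408-37231657, plus strand) is printed with no match.
NDUFAF7: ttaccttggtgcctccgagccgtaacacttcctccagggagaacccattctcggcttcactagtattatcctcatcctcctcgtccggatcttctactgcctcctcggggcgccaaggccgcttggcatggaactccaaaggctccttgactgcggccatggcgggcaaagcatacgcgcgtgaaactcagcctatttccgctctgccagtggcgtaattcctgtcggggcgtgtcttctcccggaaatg
The NRF1 core stood in 23 of the 76 member promoters (30.3%), against 8.05% of 27305 promoters in the table and 11% of 15843 of protein-coding genes. The ETS core stood in 20 (26.3%), against 10.7% of all and 14.2% of coding promoters. The YY1 core stood in 10 (13.2%), against 3.03% and 3.91%. The letters were chosen with these promoters in view, and a match is a description of sequence and not of binding. Compared members with an NRF1 core (20) had a median difference of 0.04 between Mesoderm and E8, and those without it (47) of 0.11. For Nam these medians were 0.08 and 0.03, and for Y27632 0.03 and 0.05, so the order changed with the comparison. With and without the ETS core the medians were 0.08 and 0.05 for Mesoderm, 0.07 and 0.03 for Nam, and 0.12 and 0.03 for Y27632. With and without the YY1 core they were 0.03 and 0.08 for Mesoderm, 0.03 and 0.07 for Nam, and 0.01 and 0.06 for Y27632. For the ETS and YY1 cores the order did not change with the comparison. These medians are descriptions, with no test between them.

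Most members were detected everywhere. Of the 92, 82 were detected on at least 1 array (a detection p of at most 0.01) and 78 on all 4. The members detected on 1 to 3 arrays were the complex I accessory subunits NDUFA5, NDUFB1, NDUFC2 and NDUFV3, all close to the detection limit. The 10 members detected on none were the complex IV forms COX4I2, COX6A2, COX6B2, COX7A1, COX7B2 and COX8C, the complex I genes NDUFB4, NDUFS6 and NDUFAF8, and NDUFB2-AS1. Over the 82 detected members the median intensity was 11.22 on Mesoderm, 11.24 on Nam, 11.12 on Y27632 and 11.15 on E8, while the median over all genes was 8.16, 8.17, 8.18 and 8.17. The member probes are thus bright, with 62 of 82 members (75.6%) at a mean intensity of at least 10, against 22.2% of the 12083 detected genes. Probes differ in how strongly they bind, so this brightness says how well the members were measured and not how much RNA they have.

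**Figure D1:**
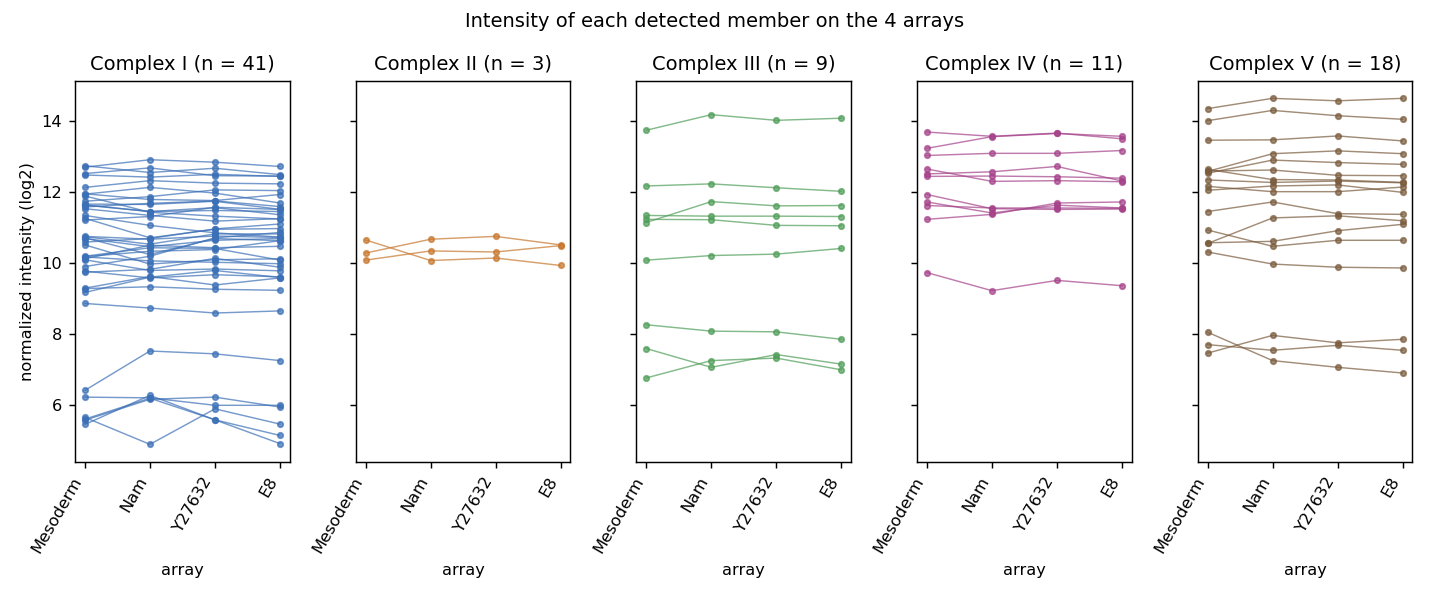
Normalized intensity (log2, vertical axis) of each detected member on the Mesoderm, Nam, Y27632 and E8 arrays, with a panel for each respiratory complex; each line joins the values of a single gene, with no error since each condition has 1 array. The lines run nearly level, and the 41 complex I members include the dim genes near 6 whose values lie close to the detection limit.

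Between Mesoderm and E8 the nuclear genes of the chain differed little, while genes as a whole differed much. Over 80 compared members the median difference was 0.05, with a middle range of -0.29 to 0.21, against -0.02 over all 11649 genes, whose middle range was -0.52 to 0.45. The SD over members was 0.36, against 1.04 over all genes. Of the 80 members, 48 were above E8 (60%, against 48.9% of all genes) and 32 below. At 1.5-fold, 4 members were higher, where 20.3% of all genes were, and 3 were lower, where 22.5% of all genes were. Together the 7 are 8.75% of members, against 42.8% of all genes. Among genes with a mean intensity of at least 10, 5 of 62 members (8.06%) passed 1.5-fold, against 29% of 2679 genes.

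**Figure D2:**
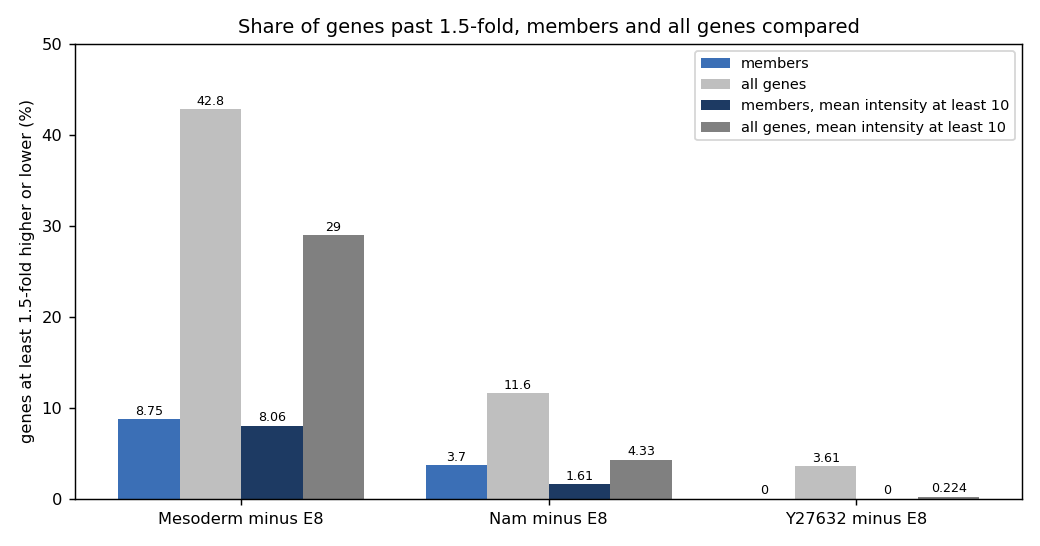
Percentage of genes (vertical axis, from 0) at least 1.5-fold higher or lower than E8, for members and for all compared genes, in the Mesoderm, Nam and Y27632 comparisons; the darker pair of bars is limited to genes with a mean intensity of at least 10. The share of members lies below that of all genes in each comparison, at 8.75% against 42.8% for Mesoderm and at 0 against 3.61% for Y27632.

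In complex I, which oxidises NADH, 39 members were compared and the median difference was 0.05, from -0.96 to 0.65. The 26 accessory subunits had a median of 0.08, with 18 above E8 (69.2%, against 48.9% of all genes). NDUFA12, an accessory subunit, read 11.34 on Mesoderm, 11.06 on Nam, 10.85 on Y27632 and 10.73 on E8. It was highest on Mesoderm, by 0.62 or 1.53-fold over E8, and lowest on E8. NDUFB9, an accessory subunit of the membrane arm, read 10.59 on Mesoderm, 10.69 on Nam, 10.96 on Y27632 and 11.10 on E8, a difference of -0.51 for Mesoderm. It ran the other way from NDUFA12, with E8 highest.

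The 6 compared core subunits, which between them carry the flavin and the iron-sulphur clusters, had a median difference of -0.19. Of these, 2 were above E8 (33.3%, against 48.9% of all genes) and 4 below. NDUFV1, which binds NADH and the flavin, read 10.18 on Mesoderm, 10.33 on Nam, 10.38 on Y27632 and 10.63 on E8, so that E8 was the highest of the 4. None of the 6 (0 of 6, where 42.8% of all genes did) passed 1.5-fold between Mesoderm and E8. The values lay between -0.45 for NDUFV1 and 0.23 for NDUFS1, an iron-sulphur subunit.

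Assembly factors of complex I, which help to build the enzyme without staying in it, held 3 of the 4 complex I members past 1.5-fold. The 7 compared NDUFAF genes had a median of -0.15 and an SD of 0.60, with 1 higher and 2 lower at 1.5-fold. That is 42.9% of 7 genes, at the background of 42.8% of all genes, whose SD of 1.04 was larger. NDUFAF7, a methyltransferase that acts early in assembly, read 9.90 on Mesoderm, 10.19 on Nam, 10.71 on Y27632 and 10.86 on E8. Mesoderm was lowest and E8 highest, a difference of -0.96 or 1.95-fold lower on Mesoderm. Its 3 probes gave -0.96, -1.12 and -0.96 for this comparison. NDUFAF6, another early factor, read 6.41 on Mesoderm, 7.52 on Nam, 7.44 on Y27632 and 7.25 on E8. The 3 arrays without BMP4 lay together and Mesoderm lay below them, with a difference of -0.84 or 1.78-fold lower than E8. NDUFAF6 was read by 1 dim probe, and without background correction its difference was -0.38, short of 1.5-fold. NDUFAF4 read 9.17 on Mesoderm, 9.60 on Nam, 9.79 on Y27632 and 9.59 on E8, a difference of -0.42 with -0.52 at its other probe. NDUFAF3, known as its partner in assembly, stood on the other side, at 11.89 on Mesoderm, 11.43 on Nam, 11.32 on Y27632 and 11.24 on E8. That was 1.57-fold higher on Mesoderm than on E8. NDUFAF5 was 0.31 and 0.30 above E8 by its 2 detected probes.

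**Figure D3:**
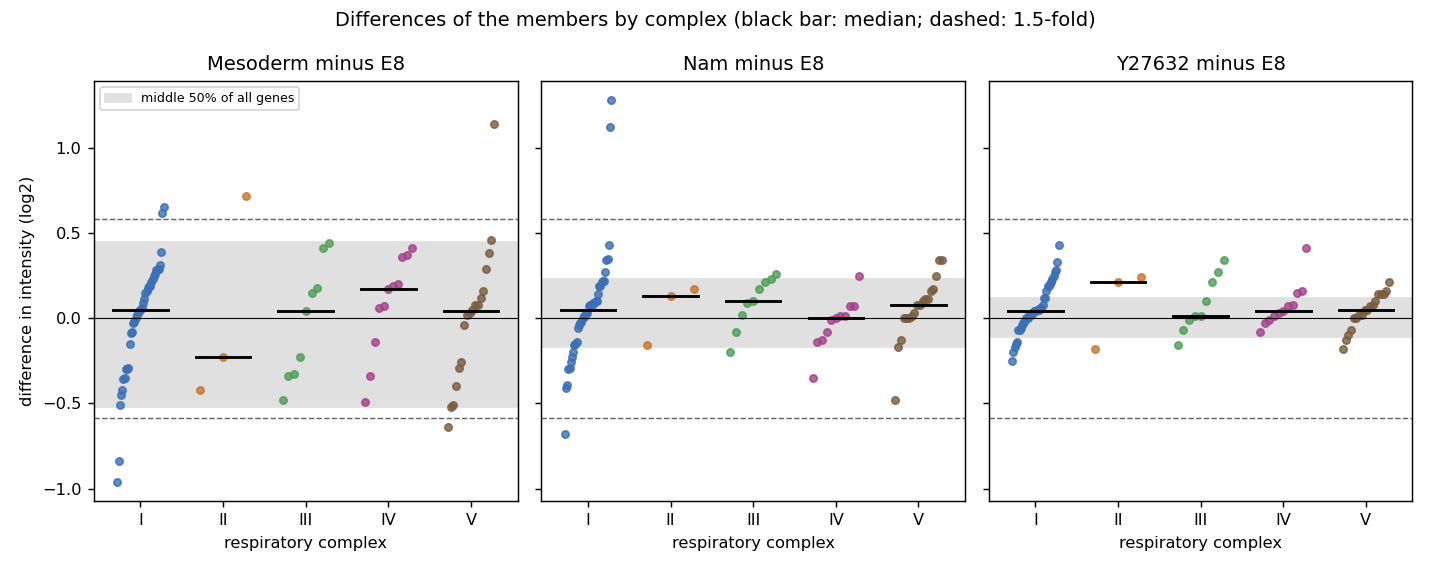
Log2 difference from the E8 array (vertical axis) of each compared member, by respiratory complex, for Mesoderm, Nam and Y27632; points are genes, black bars medians over genes, dashed lines 1.5-fold and the grey band the middle 50% of all compared genes. Most members lie within the dashed lines in each panel; the 2 highest points of the Nam panel are NDUFC2 and NDUFV3, which E8 did not detect, so that their drawn heights are not measured folds.

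Complex II, succinate dehydrogenase, also belongs to the citrate cycle. Its flavoprotein SDHA read 10.08 on Mesoderm, 10.34 on Nam, 10.31 on Y27632 and 10.49 on E8, and its 2 probes gave -0.42 and -0.54 for Mesoderm minus E8. SDHC, which with SDHD anchors the enzyme in the membrane, read 10.65 on Mesoderm, 10.07 on Nam, 10.14 on Y27632 and 9.93 on E8. Mesoderm was thus the highest of the 4 arrays for SDHC and the lowest for SDHA. The difference of SDHC was 0.72 or 1.64-fold at its brighter probe and 0.35 at the other, which did not pass 1.5-fold. SDHD read 10.28 on Mesoderm, 10.67 on Nam, 10.75 on Y27632 and 10.51 on E8, a difference of -0.23, so the 2 anchor subunits differed in sign. SDHB, also a subunit of complex II, had no named probe, so only these 3 genes of the complex were measured.

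In complex III, which carries electrons from ubiquinol to cytochrome c, the median over 9 members was 0.04 and none passed 1.5-fold in Mesoderm (0 of 9, where 42.8% of all genes did). UQCRB, a subunit near the quinone site, was the highest at 7.59 on Mesoderm, 7.06 on Nam, 7.42 on Y27632 and 7.15 on E8. Its difference of 0.44 did not hold at its other detected probe, which gave -0.11, and the probe annotated to the pseudogene UQCRBP1, which may share its signal, gave 0.27. UQCR10, a small subunit, followed with 0.41, 0.49 and 0.49 at its 3 probes. UQCRH, the hinge protein that meets cytochrome c1, was the lowest at 11.14 on Mesoderm, 11.73 on Nam, 11.61 on Y27632 and 11.62 on E8. The 3 arrays without BMP4 were within 0.12 of each other for UQCRH and Mesoderm lay below them, with a difference of -0.48 from E8 and of -0.40 at its other probe. UQCRHL, a near-identical copy of UQCRH whose signal may come in part from UQCRH, gave -0.34. CYC1, cytochrome c1 itself, read 11.34 on Mesoderm, 11.32 on Nam, 11.32 on Y27632 and 11.31 on E8 at its 1 probe. The differences of CYC1 from E8 were smaller than the between-probe SD pooled over genes, which was 0.43 for Mesoderm. Those of UQCRB, at 0.44, and UQCRH, at -0.48, were slightly larger than that SD.

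Complex IV, cytochrome c oxidase, had the highest median of the 5 complexes, 0.17 over 11 members. Of these, 8 were above E8 (72.7%, against 48.9% of all genes) and 3 below. None passed 1.5-fold (0 of 11, where 42.8% of all genes did). COX7A2L, which joins complexes III and IV into supercomplexes, read 11.93 on Mesoderm, 11.53 on Nam, 11.51 on Y27632 and 11.52 on E8. Only Mesoderm stood off for COX7A2L, by 0.41. COX7B, a small subunit, was the lowest member at 11.23 on Mesoderm, 11.37 on Nam, 11.69 on Y27632 and 11.72 on E8, with Mesoderm and Nam below the other 2 arrays. COX4I1, the common form of the regulatory subunit 4, read 13.69 on Mesoderm, 13.57 on Nam, 13.66 on Y27632 and 13.50 on E8.

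Complex V had a median of 0.04 over 18 members, with 1 at least 1.5-fold higher and 1 lower (11.1%, against 42.8% of all genes). ATP5F1E, the epsilon subunit of the central stalk, read 8.05 on Mesoderm, 7.25 on Nam, 7.06 on Y27632 and 6.90 on E8. It was the member with the largest difference of the 80, 1.14 or 2.21-fold higher on Mesoderm, and Mesoderm lay above each other array. The probes annotated to the pseudogene ATP5F1EP2, a near copy from which signal may be shared, read 13.39 and 12.63 on Mesoderm, 12.54 and 11.62 on Nam, 12.61 and 11.57 on Y27632, and 12.59 and 11.51 on E8. These were 0.80 and 1.12 above E8 on Mesoderm, in the direction of ATP5F1E, and the transcript behind either signal cannot be told apart here. ATP5MC1, one of the genes that encode subunit c of the rotor ring, read 10.55 on Mesoderm, 11.27 on Nam, 11.33 on Y27632 and 11.19 on E8. Mesoderm was lowest, with a difference of -0.64 or 1.56-fold lower than E8, but the other probe of the gene gave 0.15, a between-probe SD of 0.56. Of the other c-ring genes, ATP5MC3 gave -0.40 and ATP5MC2 0.02.

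The F1 head, where ATP is made, and the stalk that holds it were otherwise near or below E8 on Mesoderm. ATP5F1B, the catalytic beta subunit, read 14.35 on Mesoderm, 14.64 on Nam, 14.57 on Y27632 and 14.64 on E8. ATP5F1D, the delta subunit, read 10.57 on Mesoderm, 10.61 on Nam, 10.91 on Y27632 and 11.09 on E8, a difference of -0.52. ATP5PD, a peripheral stalk subunit, read 12.58 on Mesoderm, 13.08 on Nam, 13.16 on Y27632 and 13.08 on E8. Mesoderm was the lowest of the 4 for each of these 3 genes. At their brightest probes the 5 small membrane subunits were above E8, with a median of 0.16, but the other detected probe gave -0.29 for ATP5MG, against 0.38, and -0.27 for ATP5ME, against 0.03. ATP5MJ was the highest of the 5 at 10.31 on Mesoderm, 9.97 on Nam, 9.88 on Y27632 and 9.86 on E8. ATP5IF1, the inhibitor that stops the enzyme from running backwards, gave 0.29 on Mesoderm at its brighter probe, with a between-probe SD of 0.38.

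Nam, Y27632 and E8 give a range for cells without BMP4, though 2 of them held an added agent and the range is no replicate spread. Its median width was 0.19 over members and 0.29 over all genes. Mesoderm lay above all 3 arrays for 33 members, below all 3 for 30 and within their range for 19, so that 76.8% lay outside, against 80.5% of all genes. By at least 1.5-fold, 1 member lay above all 3, ATP5F1E with a gap of 0.80 to the nearest array, where 14.3% of all genes did. Another 2 lay below all 3, NDUFAF6 with -0.84 and, by its brighter probe, ATP5MC1 with -0.64, where 15.5% of all genes did. For most members outside the range, the gap was smaller than 1.5-fold.

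Between Nam and E8 the median over 81 members was 0.07, against 0.04 over 11390 genes. At 1.5-fold 2 members were higher, beside 4.93% of all genes, and 1 was lower, beside 6.69%. The 2 higher members, NDUFC2 and NDUFV3, are accessory subunits of complex I that E8 did not detect. NDUFC2 read 6.19 on Nam and was detected on no other array, which makes it at least 1.52-fold higher than on E8. NDUFV3 read 6.27 on Nam alone, at least 1.61-fold higher. Both lie near the lowest detected value of the Nam array, 5.54. Their bounds hold only under the processing used, and without background correction the differences were 0.37 for NDUFC2 and 0.33 for NDUFV3. The lower member was NDUFAF7, at 10.19 on Nam and 10.86 on E8, with -0.68, -0.64 and -0.69 at its 3 probes or 1.6-fold by the brightest. Of members with a mean intensity of at least 10, 1.61% passed 1.5-fold, against 4.33% of all such genes.

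Below that threshold the members of the Nam comparison lay close to E8, with 63 of 81 (77.8%) within 0.25, against 57.1% of all genes. The highest detected on both arrays was NDUFB2, a membrane-arm accessory subunit, at 11.94 on Mesoderm, 12.13 on Nam, 11.97 on Y27632 and 11.69 on E8. NDUFB6, of the same arm, read 10.43 on Nam and 10.08 on E8, a difference of 0.35 with 0.06 at its other probe. ATP5F1C, the gamma subunit that turns inside the F1 head, read 11.72 on Nam and 11.37 on E8. ATP5F1E and NDUFA12 were 0.34 higher on Nam and NDUFAF6 was 0.27 higher. At the other end ATP5F1D gave -0.48 by its brighter probe, while the SD over both probes was 0.70. NDUFB9 gave -0.41 and NDUFA13, an accessory subunit also known as GRIM-19, read 10.24 on Nam and 10.63 on E8. COX7B gave -0.35 and NDUFV1 -0.30. By complex the Nam medians ran from 0.00 in complex IV to 0.13 in complex II.

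Between Y27632 and E8 no member passed 1.5-fold in either direction (0 higher and 0 lower of 80), where 1.58% of all genes were higher and 2.03% lower. Among genes with a mean intensity of at least 10, 0 of 62 members and 0.224% of all genes passed. The median over members was 0.05, against 0.01 over 10989 genes, and 72 of 80 members (90%) lay within 0.25 of E8, against 78.5% of all genes. COX6C, a complex IV subunit, was the highest detected on both arrays at 12.51 on Mesoderm, 12.57 on Nam, 12.72 on Y27632 and 12.31 on E8. E8 was the lowest array for COX6C and Y27632 the highest. UQCR11, the smallest part of complex III, gave 0.34, NDUFB6 0.33, NDUFB1 0.28, and NDUFB2 and UQCRB 0.27. At the other detected probe NDUFB6 gave 0.00 and UQCRB -0.25. The lowest were NDUFV1 at -0.25, the accessory subunit NDUFA6 at -0.20, ATP5F1D and SDHA at -0.18, NDUFB3 at -0.17 and UQCRC1, a core protein of complex III, at -0.16. The probes of ATP5F1D disagreed here too, with an SD of 0.58, and NDUFB3 gave 0.00 at its other probe. NDUFA5, which E8 did not detect, was at least 1.23-fold higher on Y27632 and at least 1.04-fold higher on Mesoderm under the processing used. NDUFB1, which Mesoderm did not detect, was at least 1.24-fold lower there than on E8 under the same processing. Without background correction the differences of NDUFA5 were 0.12 on Y27632 and 0.05 on Mesoderm, and that of NDUFB1 on Mesoderm was -0.10.

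All 3 comparisons share the E8 array, so an E8 value that is itself high or low enters each of them, and values are set side by side only. NDUFAF7 gave -0.96 for Mesoderm, -0.68 for Nam and -0.15 for Y27632 at its brightest probe, and its 3 probes gave -0.15, -0.55 and -0.24 for Y27632. NDUFB9 gave -0.51 for Mesoderm, -0.41 for Nam and -0.14 for Y27632, and NDUFV1 -0.45, -0.30 and -0.25 in that order. For these 3 genes the E8 array was the highest of the 4. NDUFB2 and UQCR10 lay on the other side, with E8 the lowest array, at 0.25, 0.43 and 0.27 for NDUFB2 and 0.41, 0.23 and 0.21 for UQCR10.

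Several probes bear on how far a member can be read. Of the 82 detected members, 22 had 2 or more detected probes. The probes gave an SD over 0.5 for ATP5MC1 in the Mesoderm comparison and for ATP5F1D in the Nam and Y27632 comparisons. The 3 probes of NDUFAF7 gave an SD of 0.09 for Mesoderm and 0.03 for Nam, so the sign of NDUFAF7 did not depend on the probe. SDHA, UQCRH and UQCR10 likewise kept their sign over their probes in the Mesoderm comparison.

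**Figure D4:**
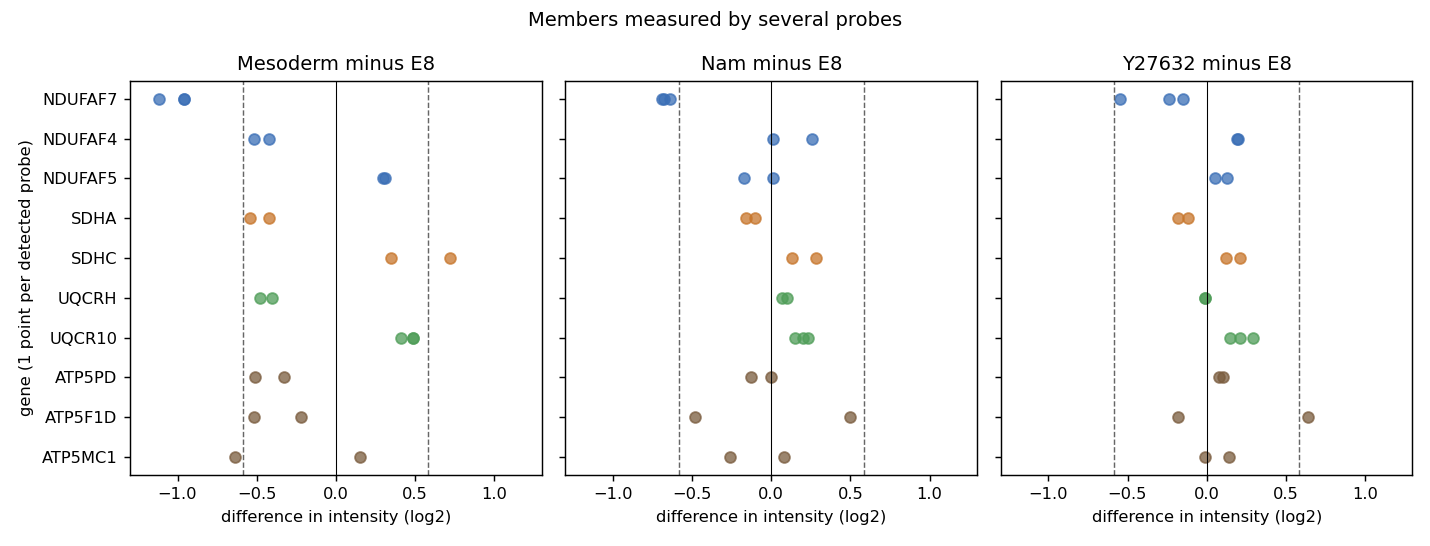
Log2 difference from E8 (horizontal axis) at each detected probe of 10 members measured by several probes, for Mesoderm, Nam and Y27632; each point is a probe and dashed lines mark 1.5-fold. The probes of NDUFAF7 lie together below 0 in the Mesoderm and Nam panels, while those of ATP5F1D and ATP5MC1 lie on both sides of 0 in at least 1 panel.

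Complex IV has subunits with alternate forms known from muscle, lung, testis or other tissues. On all 4 arrays the common forms COX4I1, COX6A1, COX6B1, COX7A2, COX7B and COX8A were detected. The alternate forms COX4I2, COX6A2, COX6B2, COX7A1, COX7B2 and COX8C were detected on none. COX6B2 had 2 probes and each other alternate form 1, and a probe without signal need not mean an absent transcript. The complex I subunits NDUFB4, with 3 probes, and NDUFS6, with 1, were also detected on no array. COX6A1 read 11.62 on Mesoderm, 11.55 on Nam, 11.55 on Y27632 and 11.54 on E8. COX7A2, whose alternate COX7A1 is the heart and muscle form, read 12.65 on Mesoderm, 12.30 on Nam, 12.32 on Y27632 and 12.29 on E8, and COX6B1 read 9.73, 9.22, 9.51 and 9.36 on these arrays. COX8A gave 12.44, 12.45, 12.43 and 12.39. COXFA4, formerly NDUFA4 and now counted with complex IV, falls outside the symbol rule and read 13.97 on Mesoderm, 13.93 on Nam, 13.94 on Y27632 and 13.92 on E8. Its relative COXFA4L2, known to be induced by low oxygen, was not detected.

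Genes around the chain were given as lists for comparison. In the Mesoderm comparison the background was again 20.3% of all genes higher, 22.5% lower and 42.8% past 1.5-fold in either direction. The share past 1.5-fold was 26.1% of other assembly factors, 14.5% of ribosomal proteins and 8.33% of citrate cycle genes. It was 13.3% of carrier and energy balance genes and 35.3% of cytochrome c and quinone genes, 6 of 17 and near the background. Among all genes with a mean intensity of at least 10 the share was 29%. The other assembly factors lie on both sides of that intensity, and no background was matched to the intensity of a list. Of 46 other assembly factors compared, 5 were at least 1.5-fold higher on Mesoderm and 7 lower, with a median of 0.02. SDHAF4, an assembly factor of complex II, was 1.28 higher, and COX20, of complex IV, gave -1.15. The 76 proteins of the mitochondrial ribosome, which translates the mitochondrially encoded subunits, had a median of -0.09, with 2 higher, led by MRPL28 at 0.87, and 9 lower, led by MRPS25 at -1.82. In the citrate cycle, 0 of 12 were higher and 1 lower, from IDH2 at 0.49 to DLST at -0.64. Among 17 genes for cytochrome c, ubiquinone synthesis and electron transfer, 1 was higher, ETFA at 0.66, and 5 lower, led by COQ8A at -1.16. CYCS, cytochrome c, was among them at 6.09 on Mesoderm, 7.42 on Nam, 7.28 on Y27632 and 7.19 on E8. Among 15 genes of mitochondrial carriers, pyruvate dehydrogenase, its kinases and other energy balance proteins, 0 were higher and 2 lower, PDK3, a pyruvate dehydrogenase kinase, at -1.72 and SLC25A4, an ADP/ATP carrier, at -1.66. SLC25A4 read 10.24 on Mesoderm, 12.09 on Nam, 11.84 on Y27632 and 11.90 on E8.

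Regulators of mitochondrial biogenesis had the lowest median on Mesoderm, -0.32 over 17 genes, with 3 higher and 5 lower at 1.5-fold. These 8 are 47.1% of the list, near the background of 42.8%, so the count does not set the list apart from other genes. PPARGC1A, a coactivator of respiratory genes, read 8.0 on Mesoderm, 6.09 on Nam, 6.52 on Y27632 and 6.22 on E8. ESRRG, a nuclear receptor that acts with it, read 8.20 on Mesoderm, 5.99 on Nam, 6.17 on Y27632 and 5.75 on E8. NRF1 made up the 3 by its measured difference, but it was detected on Mesoderm alone and its bound is at least 1.23-fold higher than on E8, so that 2 of the 3 are past 1.5-fold without it. The related coactivators went the other way, with PPARGC1B, not detected on Mesoderm, at least 2.48-fold lower and PPRC1 at -0.90. TWNK, the mitochondrial DNA helicase, gave -1.28, POLRMT, the mitochondrial RNA polymerase, -0.84, and ESRRA -0.65. TFAM, which packs mitochondrial DNA, read 10.44 on Mesoderm, 10.85 on Nam, 10.49 on Y27632 and 10.34 on E8. ESRRG, at 2.45, and PPARGC1A, at 1.78, differed by more than any member of the chain. So did genes of other lists, such as MRPS25 at -1.82, PDK3 at -1.72 and SLC25A4 at -1.66. On E8, ESRRG and PPARGC1A were dim, at 5.75 and 6.22, where the lowest detected value was 5.59. How far their differences depend on the background correction was not tested.

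**Figure D5:**
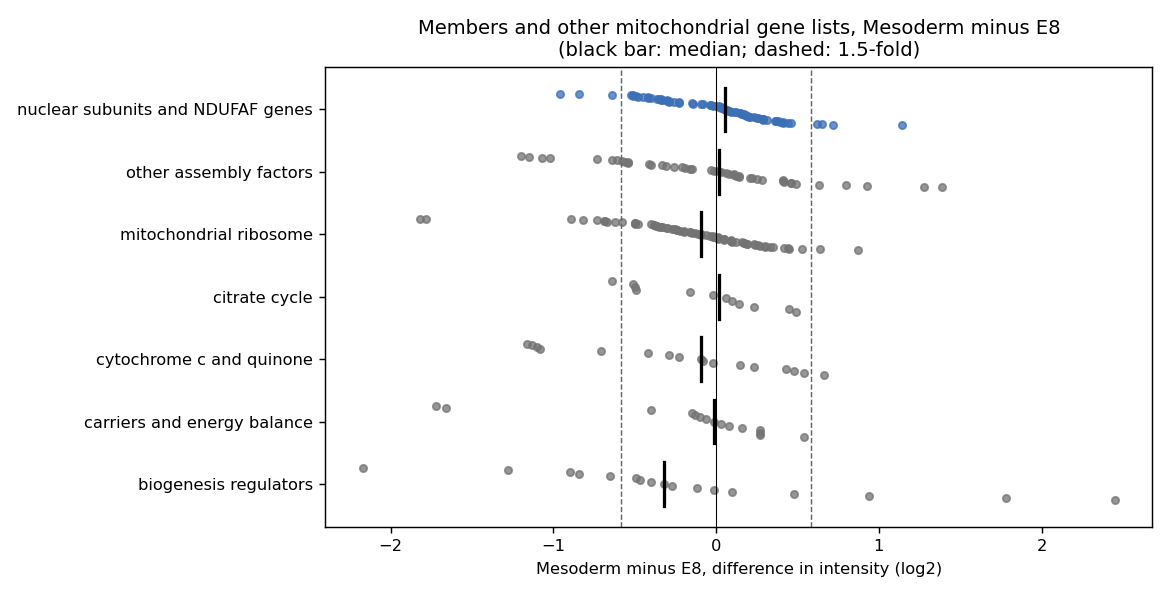
Log2 difference between Mesoderm and E8 (horizontal axis) of each compared gene of the members and of 6 related lists; points are genes, black bars medians and dashed lines 1.5-fold. The members lie between -0.96 and 1.14, and the regulators of biogenesis lie on both sides, with ESRRG at 2.45.

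In the Nam comparison the lists stayed near E8, with medians from -0.01 to 0.14. At 1.5-fold, 1 other assembly factor, 1 citrate cycle gene and 1 cytochrome c or quinone gene were higher by measured difference, and 1 other assembly factor, 1 ribosomal protein and 1 citrate cycle gene were lower. All genes gave 4.93% higher and 6.69% lower in this comparison. The higher assembly factor was COX18, of complex IV, which E8 did not detect and whose bound, at least 1.16-fold higher on Nam, does not reach 1.5-fold; without it 0 other assembly factors were higher. OGDH, a citrate cycle enzyme, was 0.70 higher and DLST, its partner in the same enzyme complex, gave -0.59. ETFDH, which feeds electrons from fatty acid oxidation to ubiquinone, was 0.65 higher, and COA8, a complex IV factor, gave -1.16. Among the mitochondrial ribosomal proteins MRPL42 was 0.45 higher and MRPL57 gave -0.88, while TFAM was 0.51 higher and GABPB1, a subunit of the factor GABP, gave -0.31. PRDX3, a mitochondrial peroxidase, was 0.53 higher and UCP2, a mitochondrial carrier, gave -0.51. In the Y27632 comparison the medians lay between -0.06 and 0.04, and of all listed genes only COA8, at -0.63, passed 1.5-fold, where 1.58% of all genes were higher and 2.03% lower. DLST gave -0.48 there, so it was highest on E8 of the 4 arrays, at 7.83 on Mesoderm, 7.88 on Nam, 7.99 on Y27632 and 8.47 on E8.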

How the data were processed

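Per the labels' protocols, RNAiso Plus gave total RNA, which a TargetAmp-Nano kit turned into biotin-labelled cRNA for Illumina Expression BeadChips. Per the file headers, the deposited raw table has an intensity column and a detection p-value column per array, over 47296 probes. The steps of the p-value correspond to 770 negative controls. The authors' deposited normalized values are on a log2 scale without centring, with a median of 5.58 in each column. Their method is not given in the sources used here, and the series matrix holds the same values (0 cells differ).

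Intensities were processed with limma 3.58.1 in R 4.3.3 (neqc: normal-exponential background from the detection p-values, offset 16, quantile normalization over the 4 arrays, log2). Of the probes, 30105 had 1 annotated symbol, 8 several and 17183 none here. The brightest probe detected on at least 1 array (detection p at most 0.01) stood for a gene, and a gene was compared when detected on at least 1 of the 2 arrays. Where an array did not detect it, a fold is a bound against the lowest detected value, 5.63 on Mesoderm, 5.54 on Nam, 5.82 on Y27632 and 5.59 on E8. Such a bound holds only under this processing. With 1 array per condition there was no test, and the number of arrays limits the precision. Named were, per comparison, the 6 highest and 6 lowest members detected on both arrays, the extremes of each complex and list, the isoform pairs and genes with disagreeing probes; genes beyond these were chosen after their values were seen. Members and lists were chosen with earlier results of these data known. Scripts were tested on simulated data.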

Additional observations from a re-analysis of the deposited data

How the results depend on the processing

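Under the 8 alternatives the members' medians lay between 0.04 and 0.15 for Mesoderm, 0.03 and 0.09 for Nam, and 0.04 and 0.13 for Y27632. The alternatives included median scaling over the 14895 probes detected on all 4 arrays, an offset of 50 and the authors' normalized values. Median scaling gave the highest of each, 0.15, 0.09 and 0.13, against 0.05, 0.07 and 0.05 as reported. Of 62 counts past 1.5-fold, 54 stayed within 1.5 times. The 2 members higher on Nam became 0 without background correction, 0 with detection required on both arrays and 0 at a mean intensity of at least 8, an alternative chosen after seeing the data; both rest on values near the detection limit. Without a detection filter 1 member was higher on Y27632, in place of 0. The member above all 3 other arrays, ATP5F1E, became 0 members without background correction, where its difference from E8 was 0.65. The 2 members below all 3 became 1 with median scaling, 1 without background correction, which lost NDUFAF6, and 1 with the mean of the probes. The 10 differences of at least 1.5-fold kept their sign in the 4 other normalizations of the same arrays. Differences picked for their size are likely to keep their sign, so this is no independent support. Without background correction each of the 10 was smaller, and NDUFAF6 on Mesoderm (-0.38) and NDUFC2 (0.37) and NDUFV3 (0.33) on Nam fell well short of 1.5-fold. No paired analysis was possible because each condition has 1 array. The cause of these shifts was not tested. With 1 array each, a difference between conditions cannot be told apart from variation between cultures, RNA preparations or arrays.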
